A study of Mus musculus with 2 samples.

Results

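Dio2, which encodes the type 2 deiodinase that activates thyroid hormone, and the 8 genes of the thyroid hormone receptors (Thra, Thrb), the retinoid X receptors (Rxra, Rxrb, Rxrg) and the retinoic acid receptors (Rara, Rarb, Rarg) were followed in brown adipose tissue with and without a Cre recombinase directed at D3B. These 9 genes were taken by name from the 16174 genes listed in at least 1 of the 2 RNA sequencing libraries, and all 9 were found by Entrez gene identifier. The D3BKO library came from C57BL/6 mice with floxed D3B alleles and 1 copy of Cre under the promoter of Ucp1, which is active in brown adipocytes, so other cells of the depot keep an intact allele. The D3BWT library came from C57BL/6 mice with the same floxed alleles and no Cre named in the label. All mice were fed chow and were 45 weeks old, and the title of the series gives their sex as female. D3B is read here as Dnmt3b, a DNA methyltransferase, from knowledge of the study. The labels do not say how many mice were behind a library.

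The deiodinase removes an iodine from thyroxine inside the cell and so makes triiodothyronine, the form that binds the nuclear receptors. Brown fat induces Dio2 through noradrenaline and cyclic AMP, and local triiodothyronine is needed for full heat production. The thyroid hormone receptors bind DNA mainly as heterodimers with a retinoid X receptor, a partner they share with the retinoic acid receptors. Retinoic acid can induce Ucp1 in brown adipocytes.

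The promoters of Dio2 and Rarb hold letter patterns known for such inputs and are printed for that reason. They are from RefSeq, build GRCm38.p6, both on the minus strand, and end at the last base before the annotated start. In Dio2 (chr12:90739039-90739188) the capitals mark TGACGTCA, the cyclic AMP response element, 95 to 88 bases before the start, and TATAAA, the TATA box, 30 to 25 bases before it. In Rarb (chr14:16575477-16575576) they mark a retinoic acid response element of the direct repeat type, searched as GGTTCANNNNNAGTTCA, 53 to 37 bases before the start.
Dio2: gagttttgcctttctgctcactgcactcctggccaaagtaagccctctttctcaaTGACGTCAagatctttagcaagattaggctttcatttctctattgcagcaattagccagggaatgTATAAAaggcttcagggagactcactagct
Rarb: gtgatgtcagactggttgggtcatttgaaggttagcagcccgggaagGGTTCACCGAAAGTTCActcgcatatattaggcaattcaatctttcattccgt
Over 250 bases before each of 32851 annotated starts, TGACGTCA was in 1.55% and the Rarb repeat, read on both strands, in 0.00609%, while TATAAA, read on the gene's strand, was in 7.59%. Among the 16 starts annotated for the 9 genes, TGACGTCA was found at that of Dio2 and the repeat at that of Rarb. The repeat was searched with the letters of the Rarb element itself, so its match at Rarb and its rarity elsewhere are no independent result. These are matches of letters, and no binding was measured here.

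The D3BKO library held 10068359 expected counts and the D3BWT library 9666528. With 1 library per genotype there is no measure of the spread between mice and no test, and the values compare these libraries. Each interval given is a 95% interval that covers counting error only, and PCR copies may make it too narrow. Cre, loss of D3B and sequencer lane (lane 1 for D3BKO, lane 2 for D3BWT) cannot be told apart. Dnmt3b itself had 0.18 FPKM from 7 counts in D3BKO and 0.39 FPKM from 15 counts in D3BWT, a ratio of 0.462 (0.159 to 1.20), so a loss was not detectable at this depth. FPKM is fragments scaled to transcript length and library size, so levels can be compared between genes. In bulk tissue, fewer cells of a type and less RNA per cell cannot be told apart.

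Dio2 was lower in the D3BKO library. It had 16.03 FPKM in D3BKO, from 937 counts, and 25.85 FPKM in D3BWT, from 1452 counts, a ratio of 0.620 (0.571 to 0.674). A gene was counted as past 1.5-fold when log2((FPKM + 1) in D3BKO / (FPKM + 1) in D3BWT) lay beyond that fold and the counting interval excluded 1, among the genes that reached 1 FPKM in D3BKO or D3BWT. On that scale the Dio2 difference was -0.66, and 316 of the 11746 tested genes had a more negative one. Dio2 was the 1 gene of the 9 past 1.5-fold lower, and none was past 1.5-fold higher, where 3.41% of all tested genes were past it lower and 4.35% higher. At 2-fold no member passed, against 0.673% of tested genes lower and 0.902% higher. The Dio2 call also ended once the 2 FPKM totals were made equal, where the difference was -0.57.

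The thyroid hormone receptor genes differed from each other in level and, as deposited, in ratio. Thra, whose receptor is the abundant form in most tissues, had 32.06 FPKM in D3BKO and 42.59 FPKM in D3BWT, a ratio of 0.753 (0.681 to 0.831). Thrb had 4.70 FPKM in D3BKO and 4.99 FPKM in D3BWT, a ratio of 0.942 (0.796 to 1.11) that did not differ from 1 beyond counting error and whose log2 value was 0.001 with equal FPKM totals. Thra was thus lower in D3BKO beyond counting error but inside 1.5-fold. Its level was 6.82 times that of Thrb in D3BKO and 8.54 times in D3BWT, and the quotient of these, which does not depend on the size of the libraries, was 0.799 (0.657 to 0.972). Across all genes the ratio also varied with transcript length and GC content, and the quotient was not recomputed without these trends. Thra has 2246 bases and 57.6% GC, and Thrb 5997 bases and 45.5% GC. With both trends removed the log2 ratio was -0.29 for Thra and -0.14 for Thrb, against -0.40 and -0.07 before. The authors' table lists 1 transcript for Thra, which encodes 410 residues, the hormone-binding alpha 1 form. The form that does not bind hormone was not measured separately. The 3' end of that other form faces Nr1d1, a clock gene on the opposite strand, but the listed transcript shares no exonic base with Nr1d1 in GENCODE M21. Nr1d1 itself had 60.35 FPKM in D3BKO and 54.52 FPKM in D3BWT.

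**Figure D1:**
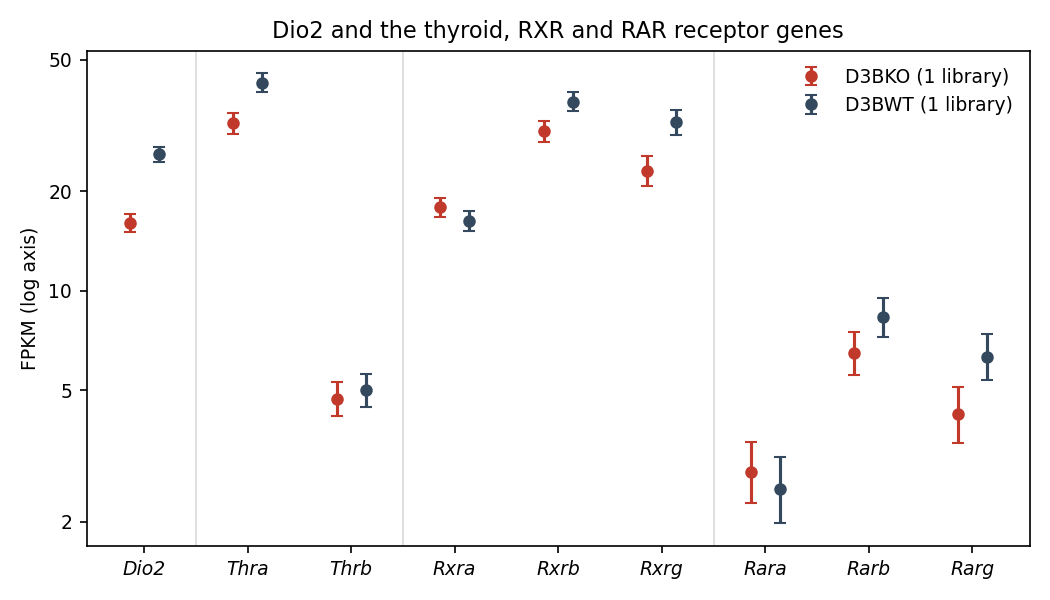
Level of each of the 9 genes in FPKM, on a log axis, in the D3BKO library (red, left of each pair) and the D3BWT library (dark, right), 1 library each. Bars are 95% Poisson intervals of the counts. The D3BKO point is below the D3BWT point for Dio2, Thra, Thrb, Rxrb, Rxrg, Rarb and Rarg, and above it for Rxra and Rara, and the small Thrb difference changes sign with equal FPKM totals.

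The 3 retinoid X receptor genes, the shared dimer partners, were not lower to the same extent. Rxra, the broadly expressed member, had 17.84 FPKM in D3BKO and 16.27 FPKM in D3BWT, a ratio of 1.10 (0.997 to 1.21). Rxrb, also expressed in most tissues, had 30.34 FPKM in D3BKO and 37.32 FPKM in D3BWT, a ratio of 0.813 (0.736 to 0.898). Rxrg, the member with the narrowest tissue range, known from muscle and brain, had 23.03 FPKM in D3BKO and 32.28 FPKM in D3BWT, a ratio of 0.713 (0.623 to 0.816). The Rxrb and Rxrg intervals lay below 1 and that of Rxra included it, though the Rxra interval lay above 1 in 3 alternatives, at 1.06 to 1.28 with equal FPKM totals. The level of Rxra over that of Rxrg was 0.775 in D3BKO and 0.504 in D3BWT, a quotient of 1.54 (1.30 to 1.81), and that of Rxra over Rxrb had a quotient of 1.35 (1.18 to 1.55). Between Rxrb and Rxrg the quotient of 1.14 (0.963 to 1.35) included 1. Rxra made up 25.1% of the summed RXR level in D3BKO and 18.9% in D3BWT, while the sum was 71.21 FPKM in D3BKO and 85.87 FPKM in D3BWT.

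Skeletal muscle markers, given beside Rxrg because muscle also expresses it, summed over 8 genes to 3.04 FPKM in D3BKO and 2.46 FPKM in D3BWT. The actin Acta1, past 1.5-fold higher, made up most of this with 2.71 FPKM in D3BKO and 1.38 FPKM in D3BWT. The other 7 summed to 0.33 FPKM in D3BKO and 1.08 FPKM in D3BWT, each at 0.74 FPKM or less in both libraries, and the creatine kinase Ckm was listed in neither. The part of muscle RNA in the Rxrg values was not tested.

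The retinoic acid receptor genes were the least abundant family, and Rarg had the lowest ratio of the 3. Rarb, a receptor that retinoic acid itself induces, had 6.48 FPKM in D3BKO and 8.30 FPKM in D3BWT, a ratio of 0.781 (0.637 to 0.955). Rarg had 4.22 FPKM in D3BKO and 6.30 FPKM in D3BWT, a ratio of 0.670 (0.519 to 0.861). Rara had 2.83 FPKM in D3BKO and 2.51 FPKM in D3BWT, a ratio of 1.13 (0.822 to 1.55). The Rarg interval lay below 1, that of Rarb lay below 1 as deposited but was 0.677 to 1.02 with equal FPKM totals, and that of Rara, from 90 counts in D3BKO and 76 in D3BWT, included 1. The level of Rara over that of Rarg had a quotient of 1.68 (1.12 to 2.54), whereas Rara over Rarb, at 1.44 (0.988 to 2.11), and Rarb over Rarg, at 1.17 (0.841 to 1.62), included 1. These are 7 pairs in all within the 3 families, with no correction for their number. The trends with transcript length and GC content were not removed from their quotients. Rarb is uncertain, since 57.7% of the exonic bases of its transcript lie opposite an exon of Top2b in GENCODE M21 and the protocol mentions no strand. The authors' Top2b model has 5652 bases against 10335 in GENCODE, so reads of the longer Top2b end could have been counted as Rarb. Top2b had 12.49 FPKM in D3BKO and 12.74 FPKM in D3BWT.

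**Figure D2:**
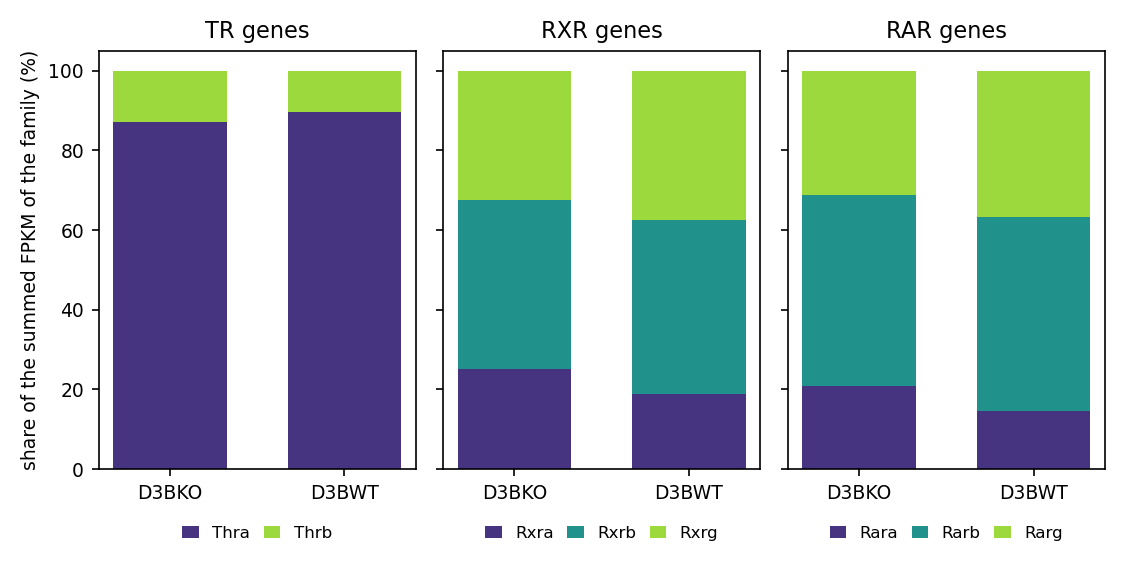
Share of each gene in the summed FPKM of its receptor family, in percent, in the D3BKO library (left bar) and the D3BWT library (right bar). Thra takes 87.2% of the thyroid hormone receptor level in D3BKO and 89.5% in D3BWT, and the shares of Rxra and Rara are larger in D3BKO.

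Across the 9 genes the levels spanned 2.83 to 32.06 FPKM in D3BKO and 2.51 to 42.59 FPKM in D3BWT, and all 9 passed 1 FPKM in both. Thra and Rxrb were the highest in each library, with overlapping intervals, followed by Rxrg, whose interval overlapped that of Rxrb in D3BWT but not in D3BKO. Dio2 came next in D3BWT, clear of its neighbours, but in D3BKO it lay below Rxra with overlapping intervals. Rarb, Thrb and Rarg followed in D3BKO, with Thrb and Rarg overlapping, and Rarb, Rarg and Thrb in D3BWT, each overlapping the next. Rara was the lowest in both libraries.

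Of the 9 log2 ratios 7 were below 0 (6 with equal FPKM totals, where Thrb changed sign), with a median of -0.31, against 53.8% of all tested genes below 0 and a median of -0.03. As deposited, the interval lay below 1 for 6 of the 9 and above 1 for none, where 22.4% of tested genes had an interval below 1 and 18.2% one above. With equal FPKM totals it lay below 1 for 5 of the 9 and above it for 1. The shares over all tested genes were not computed with equal totals. The counts of all 9 were whole in both libraries, so no reads had been divided with other listed genes. The genes nearest to Dio2 in both level and ratio, by distance of log2(FPKM + 1) over the 2 libraries, were Fbxo31, Fbxl6 and Gas1, and 18 genes lay within 0.2 of it. For Thra the nearest were B3gat3, Arl3 and Mrpl21, with 77 genes within 0.2.

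**Figure D3:**
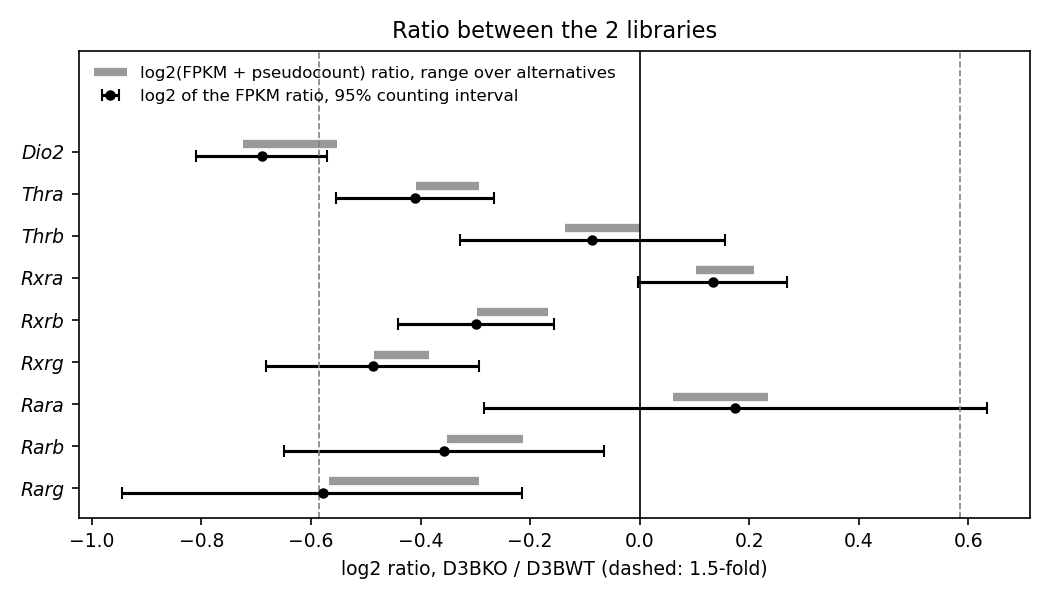
Log2 ratio of D3BKO over D3BWT for each gene. Black points are the FPKM ratio with its 95% counting interval, grey bars the range of the log2(FPKM + pseudocount) ratio over the alternative settings, and dashed lines mark 1.5-fold. Dio2 lies farthest to the left, and the grey bar of Thrb reaches 0.

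The genes that feed Dio2 transcription were mostly a little lower. Of 8 tested genes of the adrenergic and cyclic AMP input 7 had a log2 ratio below 0, 1 was past 1.5-fold lower and none higher, and the median was -0.25. Among all tested genes 3.41% were past it lower and 4.35% higher. The 1 gene of the list past it was Adrb1, a beta-adrenergic receptor, with 5.25 FPKM in D3BKO and 9.95 FPKM in D3BWT, a ratio of 0.528 (0.422 to 0.657). Adrb3, the main beta-adrenergic receptor of brown adipocytes, had 118.17 FPKM in D3BKO and 158.25 FPKM in D3BWT, a ratio of 0.747 (0.713 to 0.782). Gnas, which encodes the stimulatory G protein subunit, and Adcy3, an adenylyl cyclase, had ratios of 0.773 (0.762 to 0.784) and 0.784 (0.727 to 0.844), and Adra1a, an alpha-adrenergic receptor, 0.950 (0.865 to 1.04).

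The genes that act on the deiodinase protein did not pass 1.5-fold. Over 13 tested genes of its ubiquitination, its selenocysteine and its reduction the median log2 ratio was -0.001 (0.08 with equal FPKM totals), with none past 1.5-fold in either direction. Sephs2, which makes the selenium donor for selenocysteine, had 81.11 FPKM in D3BKO and 109.97 FPKM in D3BWT, a ratio of 0.738 (0.693 to 0.785). Ube2g2, a ubiquitin-conjugating enzyme of the endoplasmic reticulum, had a ratio of 1.07 (0.951 to 1.20), and the thioredoxin gene Txn1 and its reductase Txnrd1 had 1.05 (0.974 to 1.14) and 0.999 (0.912 to 1.10).

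Of the 11 genes of thyroid hormone transport, binding and the other deiodinases 5 were tested. The other deiodinases were at the limit of detection, with 1 count of Dio1 in D3BKO and 2 in D3BWT, and no count of Dio3, for which 3 counts would be 0.298 CPM in D3BKO and 0.310 CPM in D3BWT. Slc7a8, an amino acid transporter that also carries thyroid hormone, was past 1.5-fold lower with 3.24 FPKM in D3BKO and 5.99 FPKM in D3BWT, a ratio of 0.541 (0.433 to 0.673). Sult1a1, a sulfotransferase of phenols, was past 1.5-fold higher with 44.04 FPKM in D3BKO and 27.04 FPKM in D3BWT, a ratio of 1.63 (1.43 to 1.86). Slc16a10, a transporter of aromatic amino acids and thyroid hormone, had 8.82 FPKM in each. The list median was -0.37, over 5 genes.

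Genes that triiodothyronine is known to induce were not lower as a group. Of 14 tested, 4 were past 1.5-fold higher and 1 lower, where 4.35% of all tested genes were past it higher and 3.41% lower. The log2 ratio was above 0 for 11 of the 14 and below 0 for 3, with a median of 0.19. Hr, a corepressor gene that is a direct target of the receptor in brain and skin, had 11.18 FPKM in D3BKO and 6.12 FPKM in D3BWT, a ratio of 1.83 (1.60 to 2.09). The others higher were Me1, Fasn and Acaca, enzymes of fatty acid synthesis that insulin and sterol regulatory factors induce as well, with ratios of 1.71 to 1.83. Bcl3, a cofactor of NF-kappa B, was past it lower, at 5.46 FPKM in D3BKO and 9.21 FPKM in D3BWT, a ratio of 0.593 (0.456 to 0.767). Thrsp, a lipogenic target, had 2232.74 FPKM in D3BKO and 2060.63 FPKM in D3BWT, a ratio of 1.08 (1.06 to 1.10). Ucp1 had a ratio of 0.857 (0.848 to 0.865) and Pdk4, a kinase that restrains pyruvate dehydrogenase, 1.09 (1.07 to 1.10). Gpd2 had a ratio of 1.21 (1.17 to 1.24).

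Retinoid handling genes went in both directions. Of 13 tested, 2 were past 1.5-fold higher and 1 lower, where 4.35% of all tested genes were past it higher and 3.41% lower. The median log2 ratio was 0.13. Aldh1a1, which oxidises retinaldehyde to retinoic acid, had 17.44 FPKM in D3BKO and 8.87 FPKM in D3BWT, a ratio of 1.97 (1.63 to 2.38). Rdh10, which makes retinaldehyde from retinol, had 2.48 FPKM in D3BKO and 5.89 FPKM in D3BWT, a ratio of 0.421 (0.302 to 0.581). Rbp7, a cellular retinol-binding protein, had 108.06 FPKM in D3BKO and 57.41 FPKM in D3BWT, a ratio of 1.88 (1.64 to 2.17). Rbp4, the secreted retinol carrier, had 217.80 FPKM in D3BKO and 226.41 FPKM in D3BWT. The retinol receptor Stra6, the esterifying enzyme Lrat and the retinoic acid hydroxylase Cyp26a1 were listed in neither library.

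Retinoic acid induced genes gave no common direction, with 1 of 7 tested past 1.5-fold higher, 1 lower and a median of 0.05. The shares over all tested genes were 4.35% higher and 3.41% lower. Rarres2, which encodes the adipokine chemerin, had 296.81 FPKM in D3BKO and 170.85 FPKM in D3BWT, a ratio of 1.74 (1.61 to 1.87). Rarres1 was lower at 0.51 FPKM in D3BKO and 1.52 FPKM in D3BWT, from 7 and 20 counts. Dhrs3, a retinaldehyde reductase, and Tgm2, a transglutaminase, had ratios of 0.866 (0.804 to 0.933) and 1.13 (1.08 to 1.19).

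None of the 17 tested coactivators and corepressors was past 1.5-fold on the scale with a pseudocount of 1 FPKM. Their median log2 ratio was -0.03, or 0.05 with equal FPKM totals. Nrip1, with 3.47 FPKM in D3BKO and 2.26 FPKM in D3BWT, had an FPKM ratio of 1.54 and an interval above 1. With the pseudocount its log2 ratio was 0.46, which is inside 1.5-fold. Hdac3, the deacetylase of the corepressor complex, had a ratio of 0.857 (0.768 to 0.957), and the coactivator acetyltransferase Kat2b 1.02 (0.917 to 1.13). Ncor1, the corepressor that thyroid hormone receptors recruit without ligand, had 15.53 FPKM in D3BKO and 14.31 FPKM in D3BWT, from counts that were partly shared with other genes.

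Of 7 other tested receptors that pair with RXR 2 were past 1.5-fold lower and none higher, with a median of -0.17, or -0.08 with equal FPKM totals and -0.07 with the length and GC trend removed. Both belong to the NR4A family of immediate early genes. Nr4a1 had 7.43 FPKM in D3BKO and 56.06 FPKM in D3BWT, a ratio of 0.133 (0.113 to 0.155), and Nr4a2 had 1.27 FPKM in D3BKO and 3.11 FPKM in D3BWT. Pparg, the adipocyte receptor and the most abundant of the 7, had 181.20 FPKM in D3BKO and 193.10 FPKM in D3BWT, a ratio of 0.938 (0.893 to 0.986), and Ppara 1.15 (1.10 to 1.19). Nr1h2, a liver X receptor, had a ratio of 0.775 (0.693 to 0.866). Over all 84 tested genes of these lists, 7 were past 1.5-fold lower and 8 higher, with a median of 0.01. Of all tested genes 3.41% were past it lower and 4.35% higher. The lists were chosen with earlier results of these data known.

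**Figure D4:**
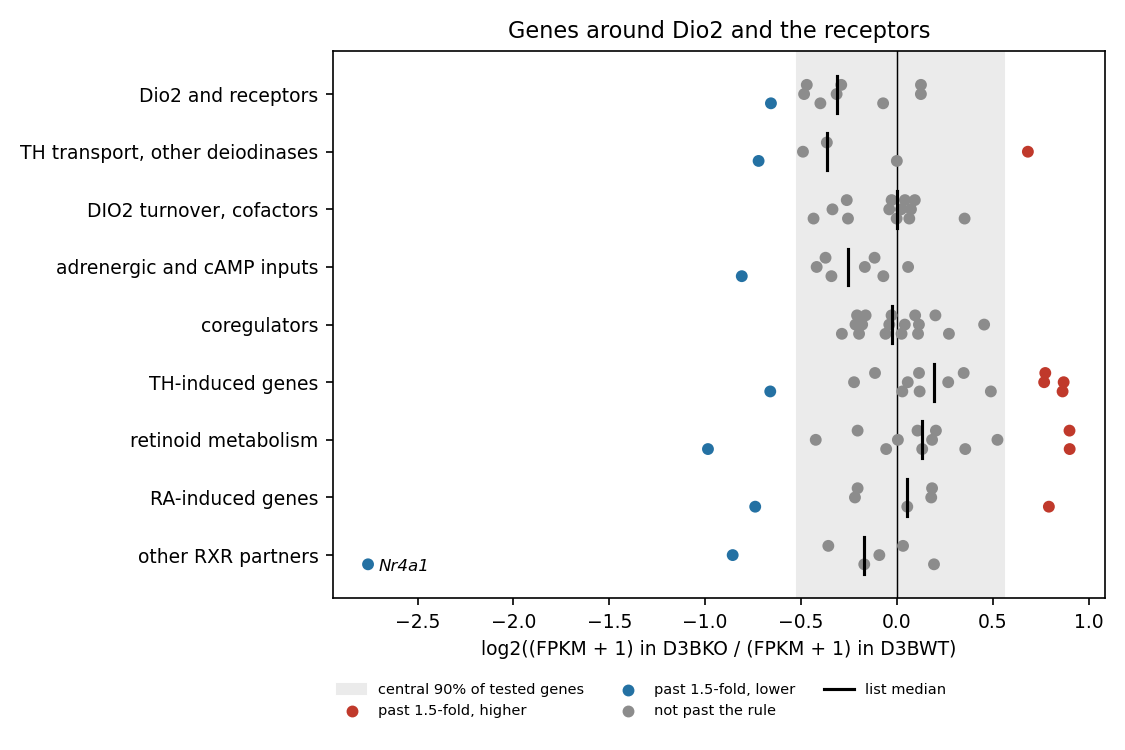
Log2((FPKM + 1) in D3BKO / (FPKM + 1) in D3BWT) of every tested gene of each list. Red and blue points are past 1.5-fold higher and lower, black lines are list medians, and the grey band holds the central 90% of the 11746 tested genes. Nr4a1 lies at -2.76, outside the range of all other points.

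Cell type markers moved between the libraries as well. Brown adipocyte markers had 7 of 8 genes below 0 and a median of -0.21, or 6 of 8 and -0.12 with equal FPKM totals, and 1 gene, Elovl3, past 1.5-fold higher. Their summed level was 14661 FPKM in D3BKO and 18779 FPKM in D3BWT, a ratio of 0.781 against 0.620 for Dio2. The sum is weighted to abundant genes such as Cox8b, with 5132 FPKM in D3BKO and 7608 FPKM in D3BWT. The ratios of the 8 genes ran from 0.675 for Cox8b to 1.65 for Elovl3. General adipocyte markers had a median of -0.04, which became 0.05 with equal FPKM totals. Endothelial markers were below 0 in 6 of 6 genes with a median of -0.57, and their summed level was 143 FPKM in D3BKO and 213 FPKM in D3BWT. Markers of fibroblasts and preadipocytes were above 0 in 8 of 8 genes with a median of 0.66 and a sum of 551 FPKM in D3BKO and 344 FPKM in D3BWT. Those of macrophages were above 0 in 6 of 6 with a median of 0.64 and a sum of 442 FPKM in D3BKO and 288 FPKM in D3BWT. Those of white adipocytes were above 0 in 6 of 6 tested genes with a median of 0.84, and Tcf21 and Wt1 of that list were at 0 in both libraries. Pericyte and smooth muscle markers had a median of 0.26, with Pdgfrb below 0. Schwann cell markers summed to 218 FPKM in each library, and erythroid markers to 5904 FPKM in D3BKO and 6047 FPKM in D3BWT. The 5 lymphocyte markers summed to 1.16 FPKM in D3BKO and 2.19 FPKM in D3BWT. The part of these shifts in the values of Dio2 and the receptors was not tested. Defining genes of the labelled tissue were abundant, with Ucp1 at 4271 FPKM in D3BKO and 4987 FPKM in D3BWT, and Cidea at 2390 FPKM in D3BKO and 2925 FPKM in D3BWT.

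**Figure D5:**
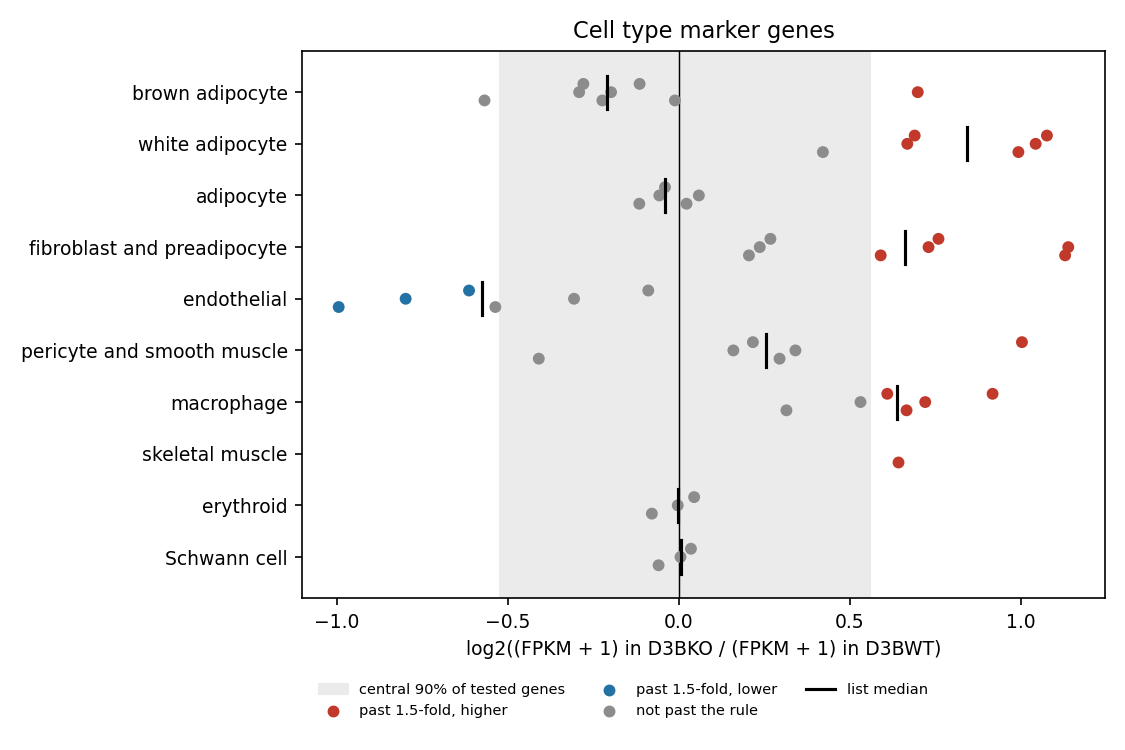
Log2((FPKM + 1) in D3BKO / (FPKM + 1) in D3BWT) of tested cell type markers, colours and lines as for the pathway lists. All endothelial points lie left of 0 and all fibroblast, macrophage and white adipocyte points right of it, and the single tested muscle marker is Acta1.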

How the data were processed

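Polyadenylated RNA of brown adipose tissue was made into 1 library per genotype, per the labels' protocols. The authors deposited, per the file headers, an expected count and an FPKM value for each Entrez gene. The submitters' processing notes name RSEM and the build mm9. No source used here names an aligner. Expected counts were rounded to whole numbers for intervals. A gene that a library does not list was set to 0. Symbols came from the RefSeq gene table of GRCm38.p6, which matched 16134 of 16174 identifiers.

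Ratios are FPKM in D3BKO over FPKM in D3BWT, with exact conditional Clopper-Pearson intervals at 95%, and intervals of single levels are exact Poisson. Quotients within a family have conditional odds ratio intervals. The rule of size used a pseudocount of 1 FPKM, a minimum of 1 FPKM in either library and folds of 1.5 and 2. The pseudocount understates differences of low genes. A count was whole within 0.05. The rule was run on simulated counts with counting noise only. That run held no spread between mice and no lane effect, so it cannot show how the rule behaves with them. Python 3.11.15, scipy 1.17.1 and pandas 2.3.3 were used. GENCODE M21 gave exon overlaps, and no genome coordinates of the deposited build were used.

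The members and all gene lists were chosen with earlier results of these data known. The genes named are the 9 members, Dnmt3b, Nr1d1, the genes of each list past 1.5-fold and up to 4 others of each list with the highest mean FPKM. The genes nearest to Dio2 and Thra in level and markers of cell types are also named. Top2b, Dio1, Dio3, Ncor1, Nrip1 and genes listed at 0 were named after their values were seen. The rule also takes 1 gene that is not reported here. Alternatives were pseudocounts of 0.1 and 5, no filter, a mean of at least 5 FPKM, a fold of 2, CPM, rescaling, and removal of the length trend in 20 bins. Removal of the trend with length and GC content was chosen after seeing the data.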

Additional observations from a re-analysis of the deposited data

How the results depend on the processing

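No paired analysis was possible because each genotype has 1 library. The count of 1 of the 9 genes past 1.5-fold lower, Dio2, became 0 with a pseudocount of 5, at a fold of 2 and with equal FPKM totals, and stayed at 1 in the other 7 alternatives, with a Dio2 log2 ratio of -0.72 to -0.55 over all 10. The cause was not tested. No setting put a member past 1.5-fold higher. Of these alternatives 7 change the ratios and 3 (no filter, a mean of at least 5 FPKM, a fold of 2) cannot, and at a mean of at least 5 FPKM 7 of the 9 genes were tested, without Thrb and Rara. In the 7 alternatives that change log2 ratios, the other 8 genes kept the sign of theirs except Thrb, which was 0.001 with equal FPKM totals.

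Over all genes the 401 lower and 511 higher became 107 and 136 with a pseudocount of 5, 191 and 221 with a mean of at least 5 FPKM, 79 and 106 at a fold of 2, and 677 and 831 in CPM. With a pseudocount of 0.1 they were 621 and 748. With equal FPKM totals they were 298 and 678, and with the length and GC trend removed 312 and 606. For the pathway lists the 7 lower became 1 with a pseudocount of 5, 3 with a mean of at least 5 FPKM and 1 at a fold of 2, where the 8 higher became 0. Across genes averaging 5 FPKM or more the log2 ratio had a Spearman correlation of 0.237 with length and -0.24 with GC content. Counting error limits Rara, Rarg and Rarb most, and the spread between mice is unknown.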
